A study of Homo sapiens with 6 samples.

Results

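The expression of 10 hypoxia-inducible genes was followed in HSC-4 cells, an established human line from an oral squamous cell carcinoma. They were chosen by name, as *HIF1A*, *EPAS1*, *CA9*, *CA12*, *NDRG1*, *ADM*, *ANKRD37*, *BNIP3*, *EGLN3* and *P4HA1*, and make up 10 of the 58884 genes in the count tables. All 10 passed the filter on low counts. The study asked what Notch inhibition changes in these cells. RNA was sequenced in 3 libraries from cells given 50 μM DAPT for 24 h and in 3 libraries from control cells. DAPT inhibits γ-secretase, the protease that frees the intracellular domain of Notch receptors and also cuts many other membrane proteins. The control cultures are described in the study's methods as given 0.5% DMSO, the vehicle, whereas their count columns carry the letters GM, which are not explained. If they received growth medium alone, the vehicle and DAPT cannot be told apart. All 6 libraries came from the same line, and no group was labelled as hypoxic. Neither oxygen nor HIF protein was measured, so the oxygen level at the cells is not known.

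The response to low oxygen is run by hypoxia-inducible factors (HIFs). Their α subunits, encoded by *HIF1A* and *EPAS1*, are made all the time, but in the presence of oxygen the EGLN prolyl hydroxylases mark them for the VHL ubiquitin ligase, which sends them to the proteasome. When oxygen falls the α subunits last, pair with ARNT and bind a short DNA core, ACGTG or GCGTG, near genes for glucose use, pH control, blood vessel growth and matrix. The level of α subunit mRNA is therefore not a measure of HIF activity. In squamous carcinoma CA9 is widely stained as a marker of hypoxic tumour areas.

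Promoter sequences are shown for the members that hold the ACGTG core, because among them a gene fell with DAPT (*CA9*, *BNIP3*), a gene rose (*ANKRD37*) and a gene passed no test (*P4HA1*). Each run is the 250 bases before the RefSeq start of transcription in GRCh38.p14, written 5′ to 3′ on the strand of the gene. Capitals mark ACGTG or GCGTG on either strand, so that a core on the opposite strand reads CACGT or CACGC, and overlapping cores form the palindrome CACGTG.
CA9: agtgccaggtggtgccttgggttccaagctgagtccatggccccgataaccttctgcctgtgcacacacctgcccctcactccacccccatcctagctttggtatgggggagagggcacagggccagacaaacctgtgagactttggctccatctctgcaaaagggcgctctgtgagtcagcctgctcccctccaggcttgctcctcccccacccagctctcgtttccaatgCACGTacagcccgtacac
BNIP3: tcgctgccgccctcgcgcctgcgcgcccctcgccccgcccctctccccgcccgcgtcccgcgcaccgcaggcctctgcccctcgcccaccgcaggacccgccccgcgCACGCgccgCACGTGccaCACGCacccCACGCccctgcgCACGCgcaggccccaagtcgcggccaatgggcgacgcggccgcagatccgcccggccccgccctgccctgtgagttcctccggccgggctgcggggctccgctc
ANKRD37: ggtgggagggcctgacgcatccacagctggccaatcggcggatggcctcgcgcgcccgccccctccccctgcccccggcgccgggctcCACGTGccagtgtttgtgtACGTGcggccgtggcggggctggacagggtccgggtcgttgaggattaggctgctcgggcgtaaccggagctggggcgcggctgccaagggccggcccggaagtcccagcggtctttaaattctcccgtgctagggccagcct
P4HA1: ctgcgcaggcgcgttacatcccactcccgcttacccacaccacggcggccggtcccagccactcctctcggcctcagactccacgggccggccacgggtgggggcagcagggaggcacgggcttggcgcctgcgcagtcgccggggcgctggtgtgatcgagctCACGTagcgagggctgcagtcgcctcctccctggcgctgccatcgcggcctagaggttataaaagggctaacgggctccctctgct
The *CA9* core lay 18 bases before the start, on the opposite strand, in chr9:35673678-35673927. *BNIP3* (chr10:131981924-131982173, minus strand) held a palindrome 134 bases before the start, with 4 further GCGTG cores around it. *ANKRD37* (chr4:185396591-185396840) held a palindrome 162 bases and a single core 143 bases before the start. *P4HA1* (chr10:73096867-73097116, minus strand) held 1 core, 86 bases before the start. Of the 9 members with a RefSeq entry, 4 held ACGTG, 5 held GCGTG and 8 held either, and *EGLN3* held neither. Among all 35116 promoter windows in the table, 18.5% held ACGTG, 32.2% held GCGTG and 43.2% held either, and counted by gene, over 27305 genes, the shares were 21.7%, 36.2% and 47.4%. A match in these letters is not a measured binding site. The gene models used for counting begin farther upstream than RefSeq for several members, so part of such a window can lie inside the counted gene.

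The deposited tables held 16317672, 14154396 and 12276313 counts in the control libraries and 15288370, 13405327 and 12800298 in the DAPT libraries. A gene with 3 reads in a library stood at 0.187 to 0.249 CPM (counts of a gene per 1000000 counts, with library sizes scaled by TMM). The Notch targets *HES1*, *HEY1* and *NRARP* fell with DAPT, with log2 fold changes of -0.77, -1.98 and -1.43. Of 8 squamous epithelium markers, 7 were above 3 reads in every library, whereas *KRT14* was low, at 3.17 ± 0.319 CPM (SD, n = 3) in control. Their summed level was 5186 to 5361 CPM in control and 3339 to 3479 CPM with DAPT, so it moved with the group, and its part in the results below was not tested. Of the 8 markers 5 fell, the keratins *KRT5*, *KRT6A*, *KRT17* and *KRT14* among them, whereas *CDH1* and *EPCAM* each rose by 0.27 on the log2 scale and *DSG3* did not pass. The library control replicate 1 stood apart. All 6 fibroblast markers were highest there, with a summed level of 552.5 CPM against at most 58.3 CPM in the other libraries. *COL1A2*, a fibrillar collagen chain, reached 215 CPM in it and at most 2.02 CPM elsewhere. Without this library, the counts of the gene lists and the calls that changed are given beside the results below. Endothelial markers summed to 1.24 to 1.81 CPM in control and 2.41 to 2.99 CPM with DAPT, with *CDH5* rising from 0.328 ± 0.171 to 1.81 ± 0.485 CPM (SD, n = 3 each). Leukocyte markers summed to 12.1 to 14.99 CPM in control and 10.02 to 12.1 CPM with DAPT. Most of that sum was *CD14*, with 120 to 167 reads a library, whereas the T cell marker *CD3E* had no reads and *PTPRC*, the common leukocyte marker, at most 2. The part of these markers in the results was not tested.

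Most of the 10 hypoxia genes were lower after DAPT. By the quasi-likelihood test of edgeR, with Benjamini-Hochberg adjustment over 15001 genes, 8 of the 10 fell, 1 rose (*ANKRD37*) and 1 did not pass (*P4HA1*), at an adjusted p under 0.05. Over all tested genes, 18% fell and 17.2% rose. The members were chosen with earlier results of these data known, so this contrast is a description and not a test of them. The members are mostly well expressed, and well expressed genes are called more readily. Among the 10140 genes with a mean of at least 10 CPM, 20.9% fell and 21.1% rose, and of the 8 members in that class 7 fell and 0 rose. The median log2 fold change of the members was -0.29, against 0.01 over all tested genes, and their range ran from -1.40 (*CA12*) to 0.57 (*ANKRD37*). Only *CA9* and *CA12* fell by at least 2-fold, which 1.77% of tested genes did, and no member rose by that much, against 0.6% of tested genes. The DAPT values lay entirely below the control values in the 8 genes that fell, and entirely above them in *ANKRD37*. Such separation was seen downwards in 22.7% and upwards in 23.6% of tested genes, 46.3% in either direction. The labels number the replicates and do not say whether they were separate cultures, so the p-values rest on the spread between these libraries. That spread was uneven. A chi-square per degree of freedom compared the counts of 2 libraries, with values near 1 for counting noise alone. It was 1.58 between control replicates 2 and 3, and 5.38 and 5.3 between these and control replicate 1. With DAPT it was 1.81 between replicates 2 and 3, and 4.12 and 3.93 between these and replicate 1. In bulk RNA, fewer cells expressing a gene and less RNA per cell cannot be told apart.

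**Figure D1:**
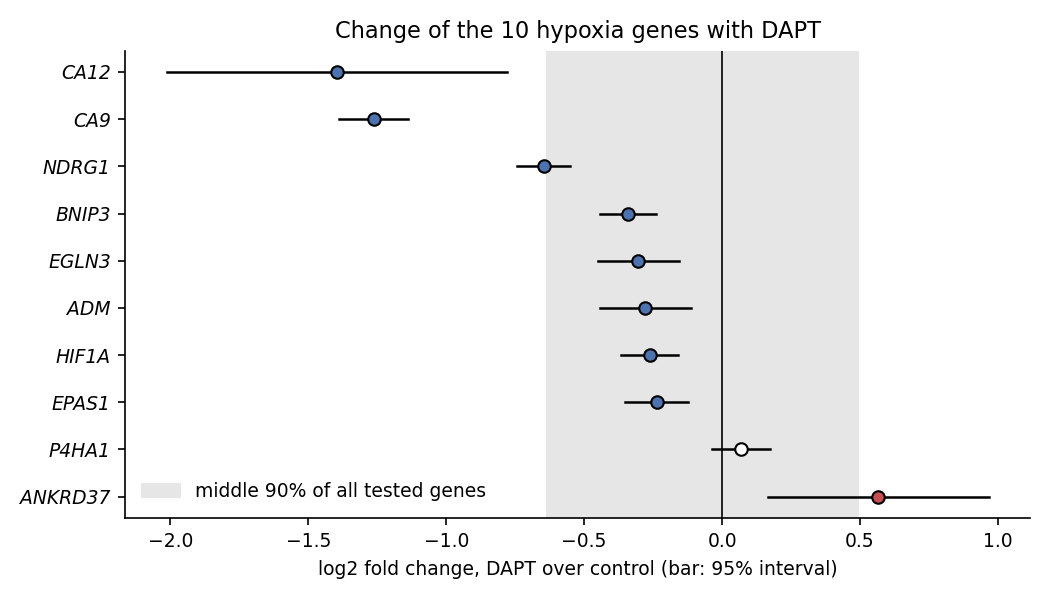
Log2 fold change of each hypoxia gene, DAPT over control (x axis), with its 95% interval (bar). Blue points fell, the red point rose and the open point did not pass at an adjusted p under 0.05; grey marks the 5th to 95th percentile of all 15001 tested genes, from -0.63 to 0.49. *CA12*, *CA9* and *NDRG1* lie at or beyond its lower edge and *ANKRD37* just beyond its upper edge.

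The mRNAs of the HIF α subunits were modestly lower. *HIF1A* (chromosome 14, 61695513 to 61748259, plus strand) was at 1029, 991 and 991 CPM in the control libraries and at 892, 808 and 811 CPM with DAPT. The 3 DAPT values were all below the control values, and DAPT replicate 1 was the nearest to them. Its log2 fold change was -0.26 (95% interval -0.37 to -0.16, adjusted p = 0.000303). *EPAS1*, which encodes HIF-2α (chromosome 2, 46293667 to 46386697, plus strand), was at 201, 199.5 and 208 CPM in control and at 187, 161 and 168 CPM with DAPT. The DAPT values again lay below all control values, by a log2 fold change of -0.24 (95% interval -0.35 to -0.12, adjusted p = 0.00192). Per kilobase of exons, *HIF1A* exceeded *EPAS1* by 6.73 to 7.25-fold in control and by 6.75 to 7.10-fold with DAPT. The log2 ratio of *EPAS1* to *HIF1A* was -2.81 ± 0.054 (SD, n = 3) in control and -2.79 ± 0.0385 (SD, n = 3) with DAPT. The difference of 0.02 had p = 0.7 in an exact two-sided permutation test (adjusted over 2 ratios p = 0.8). The smallest possible p of this test with 3 against 3 libraries is 0.1, so no difference could pass 0.05. The antisense gene *HIF1A-AS1* had at most 11 reads in any library.

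Among the members, the mRNAs of the carbonic anhydrases fell most. CA9 and CA12 sit in the cell membrane with their active site outside the cell, where they convert carbon dioxide and water into bicarbonate and protons. *CA9* (chromosome 9, 35673918 to 35681159, plus strand) was at 140, 165 and 161 CPM in control and at 63.2, 65.5 and 65.1 CPM with DAPT. The control libraries spread more widely than the DAPT libraries, and the groups were far apart. The mean fell from 155 ± 13.3 to 64.6 ± 1.24 CPM (SD, n = 3 each), and the log2 fold change was -1.26 (95% interval -1.39 to -1.14, adjusted p = 5.52e-13). Control replicate 1 had the lowest control value, and without it the log2 fold change was -1.33. On the opposite strand, exons of *ARHGEF39* cover 36.1% of the counted bases of *CA9*, and reads were assigned by strand. *CA12* (chromosome 15, 63321378 to 63381846, minus strand) was scarce, at 29, 30 and 23 reads in the control libraries and 12, 7 and 12 reads with DAPT. These correspond to 1.81, 2.17 and 1.91 CPM in control and 0.779, 0.512 and 0.922 CPM with DAPT. The groups did not overlap, and the log2 fold change was -1.40 (95% interval -2.01 to -0.78, adjusted p = 0.000904). Its counts were the lowest and its interval the widest among the members.

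Per kilobase, *CA9* was 331.5 to 367-fold above *CA12* in the control libraries and 307.5 to 557-fold above it with DAPT. The log2 ratio of *CA12* to *CA9* was -8.43 ± 0.0776 (SD, n = 3) in control and -8.62 ± 0.449 (SD, n = 3) with DAPT. The difference of -0.19 had p = 0.8 in the exact two-sided permutation test (adjusted over 2 ratios p = 0.8). The smallest possible p of this test is 0.1 here too, so no difference could have passed and no conclusion is drawn from it. The DAPT range enclosed the control range.

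*NDRG1*, a cytoplasmic protein induced by hypoxia, metal chelation and differentiation, had the largest fall among the members after *CA12* and *CA9*. It was at 524, 547 and 526 CPM in control and at 341, 346 and 333 CPM with DAPT. Both groups were tight and well separated. The mean fell from 532 ± 12.5 to 339.96 ± 6.56 CPM (SD, n = 3 each), and the log2 fold change was -0.65 (95% interval -0.74 to -0.55, adjusted p = 4.81e-10).

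*BNIP3*, a protein of the outer mitochondrial membrane that promotes removal of mitochondria by autophagy, fell less. It lies at chromosome 10, 131966455 to 131982013, on the minus strand. Its control values were 322, 335 and 331 CPM and its DAPT values 271, 260.2 and 249.9 CPM. All DAPT libraries were below all control libraries, with a log2 fold change of -0.34 (95% interval -0.44 to -0.24, adjusted p = 1.14e-05). Its relative *BNIP3L*, which has the same role, was at 111 ± 6.96 CPM in control and 108 ± 2.73 CPM with DAPT (SD, n = 3 each). The groups of *BNIP3L* overlapped, and its log2 fold change of -0.04 did not pass (95% interval -0.16 to 0.07, adjusted p = 0.57).

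*ADM* and *EGLN3* were also slightly lower. *ADM* (chromosome 11, 10305073 to 10307397, plus strand) encodes adrenomedullin, a secreted peptide that widens blood vessels. Its values were 34.1, 33.0 and 38.8 CPM in control and 30.9, 28.2 and 27.9 CPM with DAPT. Control replicate 3 was the highest, and the closest libraries of the groups were 33.0 and 30.9 CPM. The log2 fold change was -0.28 (95% interval -0.44 to -0.11, adjusted p = 0.00938), and without control replicate 3 it was -0.21 with an adjusted p of 0.061. *EGLN3* (chromosome 14, 33924231 to 34462774, minus strand) encodes a prolyl hydroxylase that acts on HIF and is itself a HIF target. It stood at 43.0, 48.7 and 46.9 CPM in control and at 36.1, 37.4 and 38.7 CPM with DAPT. The groups did not overlap, and the log2 fold change was -0.30 (95% interval -0.45 to -0.15, adjusted p = 0.00222).

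The other two members did not fall. *P4HA1* (chromosome 10, 73007217 to 73096974, minus strand) encodes the catalytic subunit of collagen prolyl 4-hydroxylase, which stabilises the collagen helix in the endoplasmic reticulum. It was at 319, 314 and 286 CPM in control and at 311, 326 and 328 CPM with DAPT. The groups overlapped, and the log2 fold change of 0.07 did not pass (95% interval -0.04 to 0.18, adjusted p = 0.309). *ANKRD37* (chromosome 4, 185396021 to 185400628, plus strand) encodes a small ankyrin repeat protein. It had 35, 41 and 38 reads in the control libraries and 55, 61 and 54 reads with DAPT. These correspond to 2.18, 2.96 and 3.15 CPM in control and 3.57, 4.46 and 4.15 CPM with DAPT. The DAPT libraries were all higher, with a log2 fold change of 0.57 (95% interval 0.17 to 0.97, adjusted p = 0.0259). The call of *ANKRD37* rested on single libraries and on the tool. Without control replicate 1, its lowest library, the log2 fold change was 0.41 and the adjusted p 0.116. Without DAPT replicate 2 or 3 the adjusted p was 0.104 and 0.0694, and in DESeq2 it was 0.102. Exons of *UFSP2* on the opposite strand cover 40.3% of its counted bases.

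**Figure D2:**
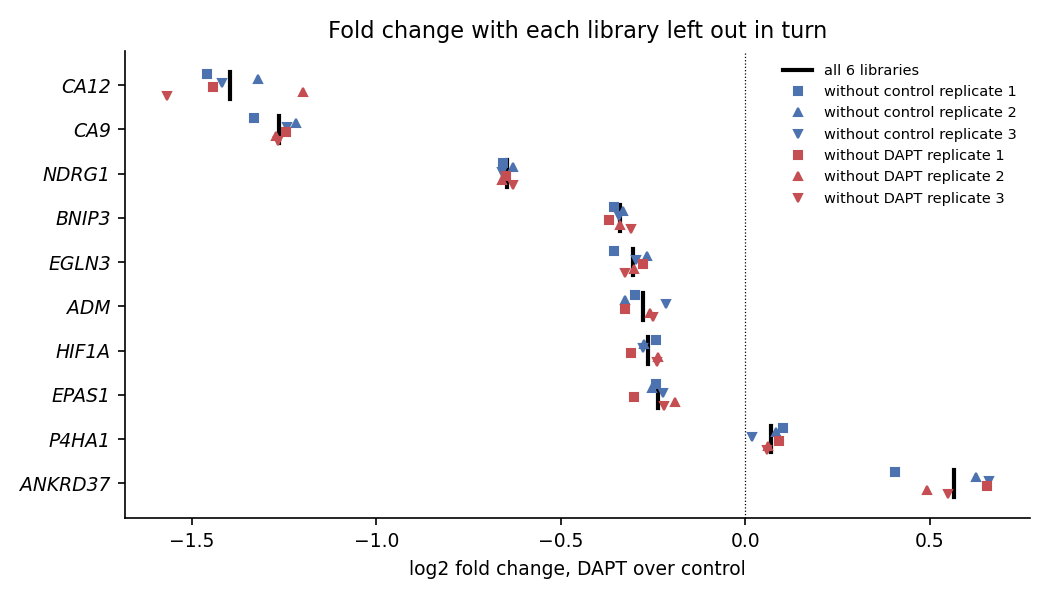
Log2 fold change, DAPT over control, of each hypoxia gene with all 6 libraries (black bar) and with each library left out in turn (squares replicate 1, upward triangles replicate 2, downward triangles replicate 3; blue for control, red for DAPT). Every gene keeps its direction, and the spread is widest in *CA12* and *ANKRD37*, the scarcest genes.

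Left out one at a time, no library turned the direction of any member. Without control replicate 1, the library with fibroblast markers, 8 members were still lower and 0 higher. Over all tested genes, 2892 were lower and 2726 higher in that comparison, against 2707 and 2574 with all 6 libraries. Without that library the log2 fold changes were -0.24 for *HIF1A* and *EPAS1*, -1.46 for *CA12* and -0.66 for *NDRG1*. They were -0.30 for *ADM*, -0.36 for *BNIP3*, -0.35 for *EGLN3* and 0.10 for *P4HA1*. Summed over the 10 genes, the level was 2616, 2638 and 2594 CPM in control and 2136, 2036 and 2027 CPM with DAPT. The 8 members other than *HIF1A* and *EPAS1* summed to 1387, 1448 and 1395 CPM in control and to 1058, 1068 and 1047 CPM with DAPT. Both sums were separated between the groups, and control replicate 1 was between the other controls in the first and the lowest control in the second.

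The levels of the members differed widely, and their order hardly changed. Per kilobase of exons, *HIF1A* was highest in control at 195 ± 4.23 CPM per kb (SD, n = 3). It was followed by *P4HA1* at 98.99 ± 5.76, *CA9* at 96.5 ± 8.25, *BNIP3* at 61.9 ± 1.24 and *NDRG1* at 54.2 ± 1.27 CPM per kb. *EPAS1* stood at 27.8 ± 0.664, *ADM* at 15.2 ± 1.31 and *EGLN3* at 6.28 ± 0.401 CPM per kb. *ANKRD37*, at 1.23 ± 0.228, and *CA12*, at 0.28 ± 0.0266 CPM per kb, were lowest. Only *P4HA1* and *CA9* overlapped as neighbours in this order, with 92.4 to 103.2 and 87.1 to 102.6 CPM per kb. With DAPT *CA9* stood at 40.2 ± 0.774 CPM per kb, below *BNIP3* at 48.9 ± 1.96, having moved from position 3 to 4, and no neighbours overlapped.

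**Figure D3:**
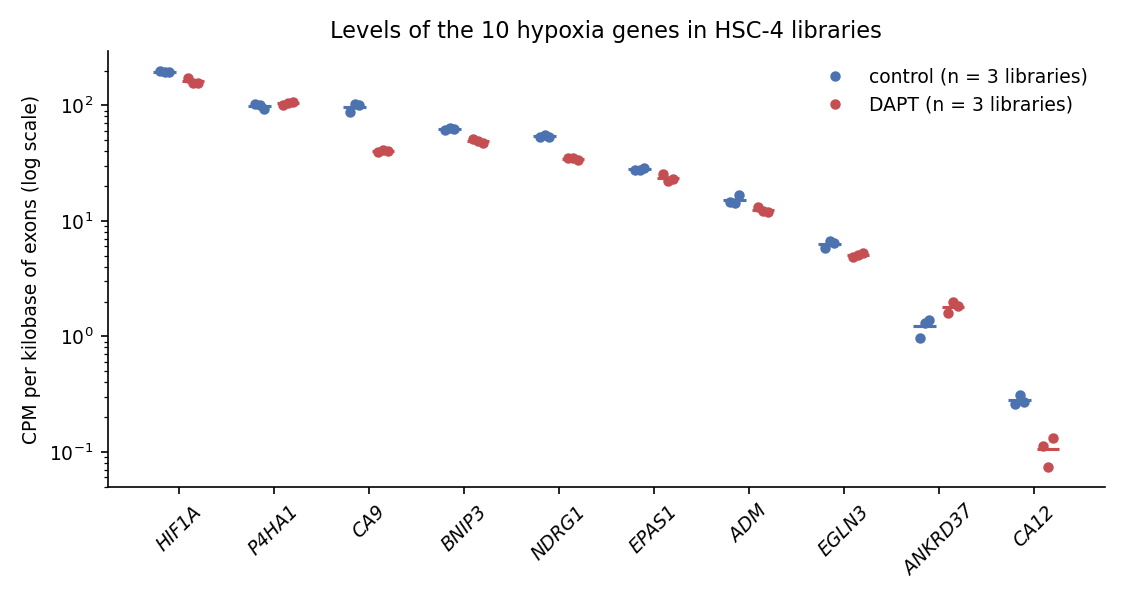
Level of each hypoxia gene in CPM per kilobase of exons (y axis, log scale) in the 3 control (blue) and 3 DAPT (red) libraries, with the group mean as a line. *CA9* drops from the level of *P4HA1* to below *BNIP3*, and *CA12* is lowest in both groups.

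The pattern of *HIF1A* over the 6 libraries was most like those of *HMMR* (Pearson's r 0.998), *NASP* (0.997) and *SPDL1* (0.996). The search covered 10140 genes with a mean of at least 10 CPM, and r was taken on log2 of CPM plus 0.5. *CA12*, the member with the largest fold change, was most like *GINS4* (0.998), *DIAPH3* (0.997) and *P3H2* (0.996). These correlations rest on 6 libraries that fall into the same groups, and are a description only.

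The genes that sense oxygen and partner with HIF did not move in 1 direction. Of 16 listed, 15 were tested, of which 2 fell, 5 rose and 8 did not pass, with a median log2 fold change of 0.05. The 46.7% called stands beside 35.2% of all tested genes, which is not far from it. Without control replicate 1, 1 fell and 6 rose. *EGLN1*, the main HIF prolyl hydroxylase in most cells, was at 105, 107 and 106 CPM in control and at 122, 127 and 126 CPM with DAPT. Its DAPT libraries were all higher, by a log2 fold change of 0.24 (SE 0.05, adjusted p = 0.000779), opposite in direction to *EGLN3*. *EGLN2* was scarce, at 2.06 ± 0.169 CPM in control and 2.03 ± 0.425 CPM with DAPT (SD, n = 3 each), and did not pass. It shares 30.6% of its exonic bases with a read-through gene on the same strand, and reads there are left out by the counter's default. *HIF1AN*, the asparaginyl hydroxylase that blocks HIF transactivation, rose by 0.30 on the log2 scale. *VHL* was at 41.1 ± 1.84 CPM in control and 46.6 ± 3.03 CPM with DAPT (SD, n = 3 each), with overlapping groups (log2 fold change 0.18, adjusted p = 0.0525), and without control replicate 1 it passed (adjusted p = 0.0137). *ELOC*, a subunit of the VHL ligase, had a log2 fold change of -0.21 with overlapping groups, and its adjusted p went from 0.04 to 0.156 without control replicate 1.

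*ARNT*, the obligate partner of both α subunits, was level, at 83.99 ± 2.02 CPM in control and 83.96 ± 2.98 CPM with DAPT (SD, n = 3 each), and the 95% interval of its log2 fold change was -0.11 to 0.11. *ARNT2*, its relative, was much scarcer and fell from 9.39 ± 1.07 to 4.13 ± 0.41 CPM (SD, n = 3 each), and the log2 fold change was -1.18. The coactivators *CREBBP* and *EP300*, which HIF recruits, rose by 0.48 and 0.33 on the log2 scale. *CITED2*, a HIF target that competes with HIF for these coactivators, rose by 0.31. *HIF3A* had 0 reads in every library.

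Among further HIF targets, those of glucose metabolism moved together. Of 20 listed genes, mostly for glucose uptake, glycolysis and lactate export, 19 fell, 0 rose and 1 did not pass. The median log2 fold change of the 20 was -0.38. Without control replicate 1, 18 fell and 0 rose. The count of genes that rose was also 0 at an unadjusted p under 0.05, in DESeq2 and in limma-voom. Over all tested genes the shares were 18% lower and 17.2% higher. At a mean of at least 10 CPM they were 20.9% and 21.1%. The list was chosen with earlier results of these data known, and no test over it was made. *LDHA*, which makes lactate from pyruvate, fell from 2169 ± 71.2 to 1450 ± 24.8 CPM (SD, n = 3 each), and the log2 fold change was -0.58. *TPI1* and *PGK1*, glycolytic enzymes, fell by 0.55 and 0.52 on the log2 scale. *PFKFB4*, a regulator of glycolytic flux, fell by 0.77. The glucose transporter gene *SLC2A3* was scarce, at 2.68, 1.73 and 2.07 CPM in control and 1.04, 0.88 and 0.61 CPM with DAPT, and fell by 1.34, with a log2 fold change of -1.14 without control replicate 1. The 1 gene that did not pass was *ALDOA* (log2 fold change -0.21, adjusted p = 0.238), named after its value was seen. It shares 42.3% of its exonic bases with another gene on the same strand.

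The remaining HIF targets were mixed. Of 33 listed, 31 were tested, of which 18 fell, 3 rose and 10 did not pass, and their median was -0.19. Without control replicate 1, 15 fell and 2 rose. The 67.7% called stands beside 35.2% of all tested genes, of which 18% were lower and 17.2% higher. No test over this list was made either. *LOX*, which crosslinks collagen, was at 92.0, 86.4 and 89.7 CPM in control and at 38.8, 42.5 and 37.8 CPM with DAPT. Its groups were far apart, with a log2 fold change of -1.17 (SE 0.06, adjusted p = 2.61e-12). *HILPDA*, a lipid droplet protein, fell by 0.74 on the log2 scale, *SPAG4* by 0.64, and the transcriptional repressor *BHLHE40* by 0.63.

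*VEGFA*, the angiogenic growth factor and a classic HIF target, rose. It was at 171, 167 and 159 CPM in control and at 201, 206 and 198 CPM with DAPT. The DAPT libraries were all higher, by a log2 fold change of 0.28 (SE 0.05, adjusted p = 0.000112). *STC2*, a secreted stanniocalcin, rose from 136 ± 4.43 to 217 ± 15.2 CPM (SD, n = 3 each), and the log2 fold change was 0.68. *DDIT4*, an inhibitor of mTORC1 signalling, had overlapping groups and a log2 fold change of 0.16 (adjusted p = 0.0403), which was 0.122 without control replicate 1.

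**Figure D4:**
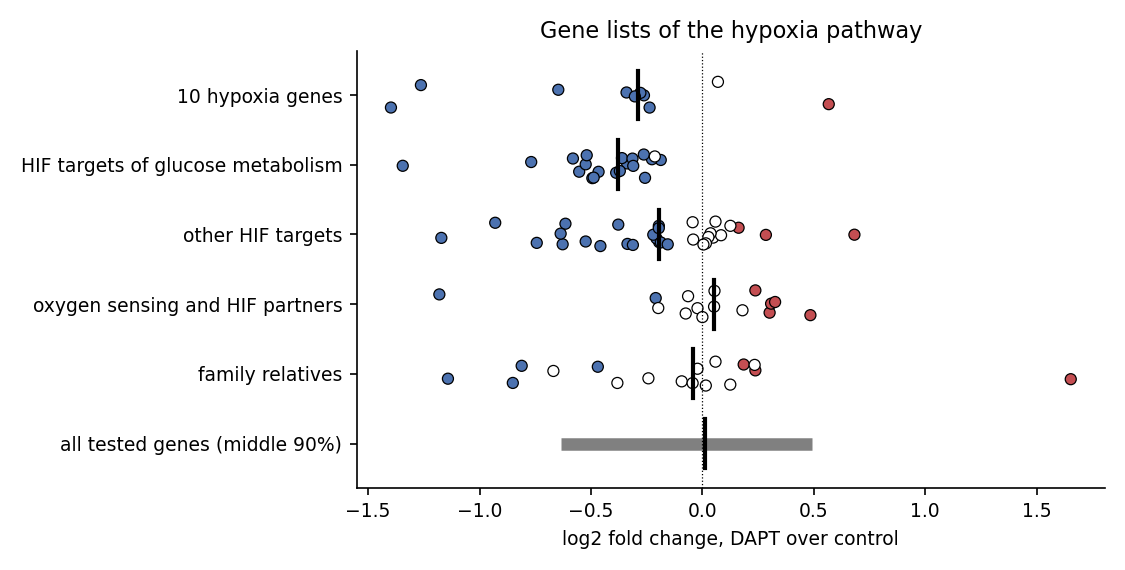
Log2 fold change, DAPT over control (x axis), of the tested genes in each list: each point is 1 gene, blue if it fell, red if it rose and open if it did not pass at an adjusted p under 0.05. Black bars are medians, -0.29 for the 10 hypoxia genes, -0.38 for glucose metabolism, -0.19 for other HIF targets, 0.05 for oxygen sensing and -0.04 for family relatives, and the grey bar spans the middle 90% of all tested genes.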

How the data were processed

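Polyadenylated RNA of HSC-4 cells was sequenced in 6 libraries on an Illumina NextSeq500 as single-end reads with a directional kit. The authors trimmed the reads with Trim Galore, aligned them to GRCh38 with HISAT2 and deposited raw read counts per gene from featureCounts 1.6.3 with the Ensembl release 96 annotation, counted by strand over exons. The processing notes also name HTSeq and DESeq2, with no role given. By default, reads that map to several places or genes are not counted, which lowers genes with close copies or overlapping neighbours.

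Here symbols were matched by gene identifier to GENCODE v44 (58472 of 58884 matched). Genes passing filterByExpr (minimum count 10) were scaled by TMM and tested with edgeR 4.0.16 (R 4.3.3), by the robust quasi-likelihood test over all 15001 genes with Benjamini-Hochberg adjustment. CPM are per 1000000 TMM-scaled counts, and CPM per kb divide them by the exonic length in the count tables. Groups came from the sample labels. Alternatives were other normalizations and filters, DESeq2 1.42.0, limma-voom (limma 3.58.1), a replicate block, stricter thresholds and leaving out each library.

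The members and gene lists were chosen with earlier results of these data known, and no test over a list was made. Named were all members, up to 5 called genes with the largest fold change per list and direction, *VEGFA*, *ARNT*, *VHL*, *EGLN1*, *EGLN2*, *BNIP3L* and *P4HA2* whatever their values, 3 Notch targets, and the 3 genes most correlated with *HIF1A* and with the member of largest fold change. Promoters and motif shares came from RefSeq (GRCh38.p14). *NDRG1* had no promoter entry. Some genes that this rule or the marker lists hold are not reported here. Intervals cover the spread between libraries.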

Additional observations from a re-analysis of the deposited data

How the results depend on the processing

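Of the 10 members, *HIF1A*, *EPAS1*, *CA9*, *NDRG1*, *BNIP3*, *EGLN3* and *P4HA1* kept their direction and their side of the 0.05 threshold under each other normalization, filter and test and with any library left out. *CA12* did so too, except that a minimum of 10 counts in every library removed it, as it removed *SLC2A3*. *ADM* and *ANKRD37* lost their calls as given above. The number of members higher was 0 in DESeq2, at an adjusted p under 0.01 and with a 2-fold limit. The labels do not say whether the replicate numbers pair the libraries. Same-numbered libraries deviated together with correlations of 0.0217, 0.106 and -0.0213, and 3 of 6 correlated best with their own number. With so few libraries these values cannot settle it. With the replicate number as a block, 8 members were lower and 1 higher, 20 glucose genes were lower, *VHL* passed (adjusted p = 0.0413) and *ELOC* did not (0.075). The count of oxygen-sensing genes lower was 1 with the block, with scaling by library size alone, at 0.01 and with the 2-fold limit. Library size alone moved the median of all genes from 0.01 to 0.06 and the share of higher among called genes from 48.7% to 61.5%. *VHL* passed under it (0.0146) and *ELOC* did not (0.133). *VHL* also passed with 10 counts in every library (0.0495) and without DAPT replicate 2 (0.034). *ELOC* did not pass without control replicate 3 (0.0775), DAPT replicate 1 (0.172) or DAPT replicate 3 (0.0547). *DDIT4* did not pass in DESeq2 (0.0583), limma-voom (0.0526) or the fit that was not robust (0.0506), nor without control replicate 3 (0.0765), DAPT replicate 2 (0.227) or DAPT replicate 3 (0.137), and *P4HA3* did not in DESeq2 (0.0508).

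At an adjusted p under 0.01, 1516 genes were higher. With the 2-fold limit, 266 genes were lower and 90 higher, 2 members lower and 0 higher, 1 other HIF target lower and 0 higher, 1 glucose gene lower, 0 oxygen-sensing genes higher, and 1 family relative lower and 1 higher. With each library left out in turn, 2190 to 2892 genes were lower and 1901 to 2726 higher, 7 to 8 members lower and 0 to 1 higher, 13 to 16 other HIF targets lower and 2 to 3 higher, 18 to 19 glucose genes lower and 0 to 0 higher, 1 to 3 oxygen-sensing genes lower and 5 to 6 higher, and 3 to 5 relatives lower and 3 to 3 higher. The difference in the log2 ratio of *EPAS1* to *HIF1A* then ran from -0.0027 to 0.051, and that of *CA12* to *CA9* from -0.36 to 0.066. Values near 0 changed sign. The log2 fold change of *ARNT* was -0.0039 with RLE, -0.0067 with upper quartile, -0.0010 with 10 counts in every library, -0.0039 in DESeq2 and -8.2e-05 in limma-voom, and -0.029 to 0.020 with a library left out. That of *EGLN2* was 0.024 with library size alone and -0.17 to 0.12 with a library left out, and that of *BNIP3L* was 0.0027 and -0.078 to 0.012. Depth limits the scarce genes, with 7 to 30 reads a library in *CA12*.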

Other observations

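Close relatives of the members were also counted. Of 28 listed, 17 passed the filter on low counts, of which 4 fell, 3 rose and 10 did not pass, with a median log2 fold change of -0.04. The 41.2% called was close to the 35.2% of all tested genes, so the count shows nothing about the relatives as a group. Without control replicate 1, 5 fell and 3 rose. *CA2*, a cytosolic carbonic anhydrase, fell, as did *CA9* and *CA12*. It was at 18.4, 20.7 and 18.7 CPM in control and at 7.79, 9.43 and 9.07 CPM with DAPT, without overlap, a log2 fold change of -1.14 (SE 0.10, adjusted p = 2.11e-08 by edgeR's quasi-likelihood test, Benjamini-Hochberg adjusted). The other tested carbonic anhydrases, named after their values were seen, did not pass. Their log2 fold changes were 0.02 for *CA5B* (adjusted p = 0.927), -0.38 for *CA11* (0.0912), 0.13 for *CA13* (0.673) and -0.24 for *CA14* (0.656). *CA4*, *CA5A*, *CA6* and *CA8* had 0 reads in every library. The relatives of *NDRG1* that passed were *NDRG2*, which fell by 0.47 on the log2 scale, and the scarce *NDRG4*, which fell by 0.81.

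*ADM2*, which encodes a peptide related to adrenomedullin, rose while *ADM* fell. It was at 4.30, 3.54 and 3.98 CPM in control and at 11.1, 12.9 and 13.4 CPM with DAPT. Every DAPT library was above every control library, with a log2 fold change of 1.65 (SE 0.13, adjusted p = 3.6e-09). Both peptides act through CALCRL with a RAMP protein. *CALCRL* was at 2.67 ± 0.687 CPM in control and 3.19 ± 0.433 CPM with DAPT (SD, n = 3 each) and did not pass, *RAMP1* did not pass (adjusted p = 0.0521), and *RAMP2* and *RAMP3* had 0 reads in every library.

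Among the subunits of collagen prolyl 4-hydroxylase, *P4HA2* was at 92.1 ± 3.27 CPM in control and 95.9 ± 3.68 CPM with DAPT (SD, n = 3 each) and, like *P4HA1*, did not pass. *P4HB*, the β subunit, which is also a protein disulfide isomerase, rose by 0.19 on the log2 scale. The scarce *P4HA3* fell from 2.53 ± 0.0611 to 1.38 ± 0.442 CPM (SD, n = 3 each, adjusted p = 0.0117), and its adjusted p was 0.0552 without DAPT replicate 2 and 0.0593 without DAPT replicate 3.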
